A study of Mus musculus with 4 samples.

Results

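The spots described here are the places in brain sections of endothelial Pdcd10 knockout mice with the least astrocyte reaction. Each spot of at least 5000 UMIs (unique molecular identifiers, which count captured RNA molecules) received a score, its summed UMIs of Serpina3n, Vim and Gfap divided by its total UMIs, and the spots were chosen by this score as the lowest 10% of each knockout library. This gave 641 spots, 295 of 2952 in knockout 1 and 346 of 3468 in knockout 2, of 11244 kept spots in all 4 libraries. They were compared with the lowest 10% of each control library, 226 of 2267 spots in control 1 and 255 of 2557 in control 2. Both sets are called low-score spots below, and the question was which changes of the whole section remain in them.

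Spatial transcriptomes were measured on fresh-frozen mouse brain sections of 10 µm with 10x Visium, in which each barcoded spot captures RNA from several cells. Knockout mice carried Slco1c1-iCreERT2 and Pdcd10fl/fl, and controls were Pdcd10fl/fl littermates. Pups were given 50 µg of 4-hydroxytamoxifen on postnatal day 1, and brains were collected on day 65. The Slco1c1 promoter drives Cre in brain endothelium, so Pdcd10 should stay intact in most other cells of a spot. Recombination by cell type was not tested. The labels conflict on oxygen. Normoxia stands in the titles and the design text, hypoxia in the treatment label of both knockouts but of neither control, and 12% oxygen over 2 days in the protocol field of each library. Where the treatment label is right, effects of oxygen and genotype cannot be told apart. Separate animals are not stated for the 2 libraries of a genotype, and the p-values therefore cover only the spread between these libraries, which may be technical.

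Endothelial loss of Pdcd10 (Ccm3) causes cavernous malformations of the brain, which are clusters of dilated, leaky vessels. Astrocytes near injured vessels become reactive: they raise the intermediate filament proteins GFAP and vimentin and secrete the protease inhibitor Serpina3n. On the mm10 genome, Serpina3n lies at chr12:104406646-104414334, Vim at chr2:13574311-13582826 and Gfap at chr11:102887336-102897200.

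The score chose the spots, so its values are a description. In score-gene UMIs per 1000000 UMIs, the knockout low-score spots ranged from 0 to 274 with a median of 186 in knockout 1, and from 0 to 237 with a median of 145 in knockout 2. The next spots above these limits stood at 275 and 237. The median of all kept spots was 1267 and 1222 in the knockouts and 65.9 and 84.8 in the controls. Every low-score spot of both controls had a score of 0, as did 622 kept spots of control 1 and 434 of control 2, so barcode order picked among tied control spots. Only 15 and 22 knockout spots reached 0.

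The score genes cannot check the label of least reaction, since low values of them chose the spots. All 641 knockout low-score spots lay below the 90th percentile of each control (341 and 334). That limit was met by 13.3% and 15.4% of all kept knockout spots for control 1 and 12.9% and 15.1% for control 2. These shares exceed the share of spots taken, so the choice of spots alone fixed this outcome. Summed over the spots, Serpina3n, Vim and Gfap together made 173 and 142 CPM (counts per 1000000 UMIs) in the knockout low-score spots. Whole control sections held 109 and 129 CPM, and whole knockout sections 1195 and 1166 CPM. The 3 genes differed in composition. Serpina3n stood at 68.9 and 58.9 CPM in the knockout low-score spots against 15.2 and 18.0 CPM over whole control sections. Vim, at 36.5 and 35.0 CPM, was near the 35.7 and 40.4 CPM of whole control sections, and so was Gfap, at 67.7 and 48.4 against 58.2 and 70.2 CPM. Reactive astrocyte genes outside the score summed to 5882 and 5335 CPM in the knockout low-score spots. Over whole sections they made 9449 and 8492 CPM in the knockouts and 2631 and 2974 CPM in the controls.

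**Figure D1:**
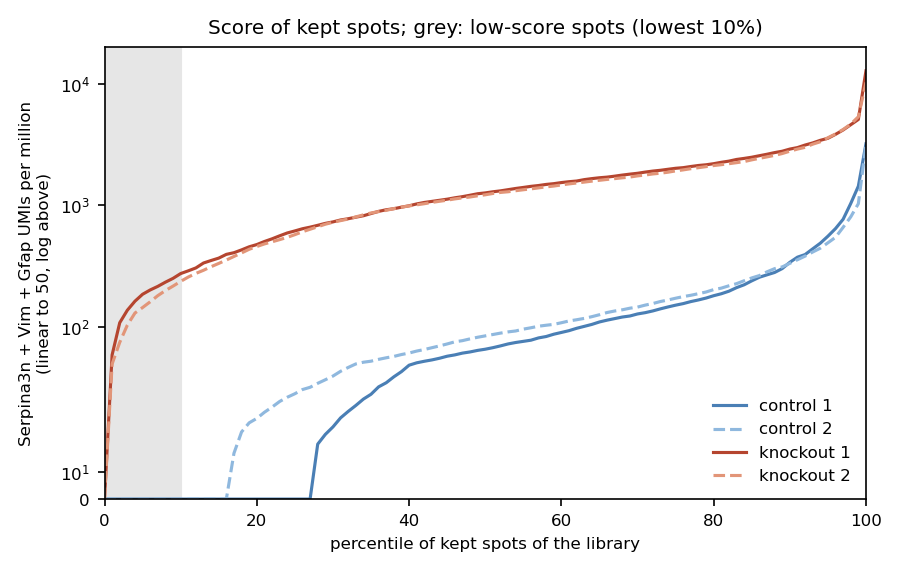
Score of every kept spot (y axis, UMIs of Serpina3n, Vim and Gfap per 1000000 UMIs, linear to 50 and logarithmic above) against its percentile within its library (x axis), 1 line per library, with the lowest 10% shaded. Apart from the spots at 0, the knockout lines lie above both control lines, and the knockout low-score spots end at 274 and 237.

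The low-score sums held 4505497 and 5408675 UMIs in control and 6760459 and 8341485 in knockout spots. The median low-score spot held 18560 and 20196 UMIs in control and 21406 and 23062 in knockout spots, where other kept spots had medians of 13006 and 16331.5. All 4 libraries list the same 4992 barcodes, which are positions on the slide, and neither spot positions nor images were analysed here. The knockouts shared 144 low-score barcodes, 48.8% of knockout 1 and 41.6% of knockout 2, and the controls shared 45, 19.9% and 17.6%. Libraries of a group differed by more than counting noise (chi-square per degree of freedom 8.62 for the control and 3.81 for the knockout low-score sums), so none was a duplicate. Pdcd10 stood at 90.3 and 76.7 CPM in control and 97.0 and 103 CPM in knockout spots (log2 fold change 0.26 ± 0.11 SE, edgeR adjusted p = 0.0974). That does not check the labels, since most cells of a spot are not targeted.

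The low-score spots of the groups came from different brain regions. Each spot was placed with the region list on which it scored highest, from marker genes that no tested list holds. The white matter list kept 0 genes under this rule and was not used, so region matching does not cover white matter. Spots highest on the cortex list made up 26.5% and 28.2% of control low-score spots but 1.36% and 0.578% of knockout ones, although they were 18.4% and 17.2% of all kept knockout spots. The midbrain and hindbrain list went the other way, with 5.75% and 7.45% of control and 31.2% and 29.2% of knockout low-score spots. The thalamus list took 19.7% to 20.8% in all 4 libraries. In the knockouts the median score was 1707 and 1614 per 1000000 UMIs in cortex-list spots, against 581 and 489 in midbrain and hindbrain-list spots. With 2 libraries against 2, an exact test cannot go below p = 0.33, so these shares were not tested. Knockout low-score spots were also rich in myelin and oligodendrocyte transcripts. Their sum was 11077 and 8257 CPM, against 5524 and 3995 CPM over all kept knockout spots. In the controls it was 9909 and 14456 CPM in low-score spots and 9208 and 12871 CPM over all kept spots.

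Because region differs with genotype in the comparison as the rule sets it, list counts and the values of many genes are given a second time against matched control spots. For every knockout low-score spot, the matched control spot is the unused one of the same region list nearest in score, in the same-numbered control library. This choice of matching was made after the region shares were seen. Neuron transcripts still differed after the match. In striatum-list spots excitatory neuron genes made 4261 and 3830 CPM in matched control and 867 and 788 CPM in knockout spots. In midbrain and hindbrain-list spots they made 870 and 996 against 720 and 742 CPM. Where they tell more, sums with equal numbers of spots per region list (equal region shares) are given too. They take the lowest-scoring spots within each list, among them 50 cortex-list and 32 hippocampus-list spots a library. Many of their knockout spots are therefore not among the low-score spots defined above. In these sums the 3 score genes made 286 and 273 CPM in the knockouts and 0 and 1.11 CPM in the controls. The matched control spots held 145 and 127 CPM of the 3 score genes, beside 173 and 142 CPM in the knockout low-score spots. Control low-score spots held 0 CPM, so matching took control spots of higher score. In both controls the general astrocyte, microglia, complement, activated phagocyte, mural and matrix sums were higher in the top than in the lowest 10% of spots by score. How far this sets the changes against matched spots was not tested.

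In low-score spots, 1982 genes rose and 2138 fell in the knockouts out of 13585 tested with edgeR (30.3% called at a 5% false discovery rate). Against matched control spots 1941 rose and 2062 fell of 13989 (28.6%), and 2812 genes were called in the same direction in both. Over all kept spots 3399 rose and 3088 fell of 17428 (37.2%). Thinned to the depth of the low-score sums, the whole section gave 3248 calls. Both knockout libraries lay beyond both controls for 66.8% of genes in low-score spots and for 72.2% over all kept spots. With equal numbers of spots per region list, 205 a library, 1118 genes rose (8.5%) and 1273 fell (9.68%).

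The whole section held 1872 genes with a called change of at least 2-fold (10.7%, beside 10.3% in low-score spots), of which 787 were tested in low-score spots and 1085 were too low in count there. Of all 1872, 539 (28.8%) remained, meaning that they were called in the same direction in low-score spots. These were 336 of 1356 higher genes and 203 of 516 lower genes. Among the rest of those tested, 211 kept their sign without a call, 30 had the other sign without a call and 7 were called in the other direction. The log2 change was at least 50% of its whole-section size in 603 of the 787. With the whole section thinned to the depth of the low-score sums, 982 genes had such a change and 502 of them (51.1%) remained. Against matched control spots 540 of the 1872 remained, 298 higher and 242 lower. Since both comparisons draw on the same libraries, this count is a description and has no test.

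**Figure D2:**
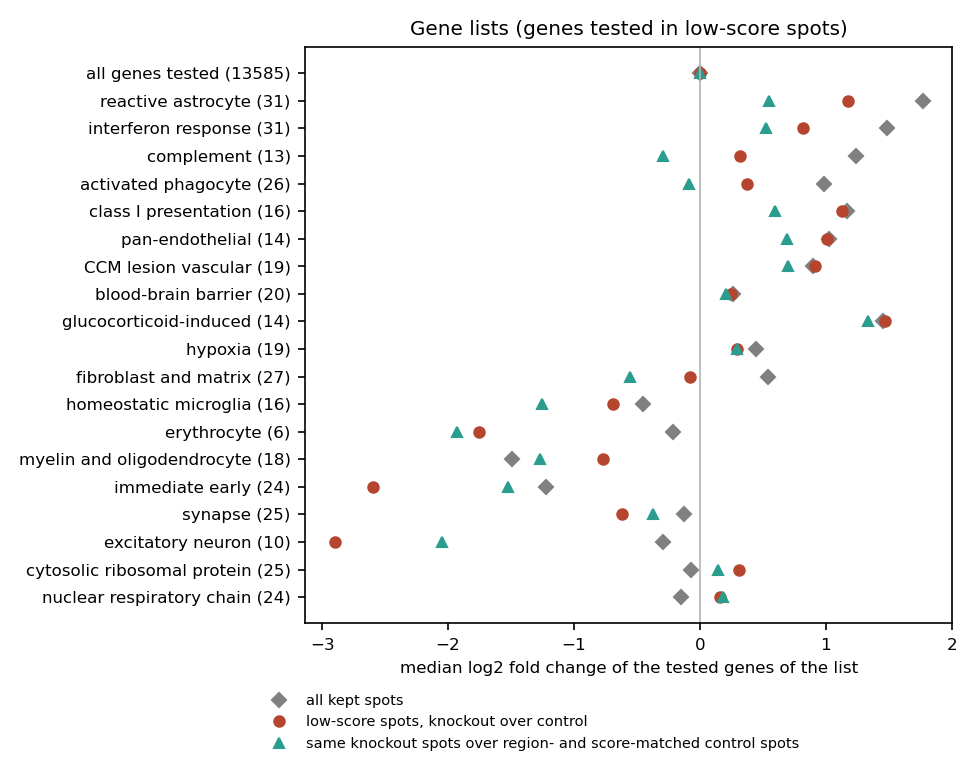
Median log2 fold change, knockout over control, of the tested genes of each list (x axis), for all kept spots, for low-score spots and for the same knockout spots over matched control spots; the number beside each name is the genes tested in low-score spots. The medians of the pan-endothelial, class I and glucocorticoid-induced lists are above 0 in all 3 comparisons, and those of immediate early and myelin genes are below 0, while the complement and activated phagocyte lists lie below 0 against matched spots.

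Reactive astrocyte genes outside the score were still raised in the least reactive spots. Of 31 such genes tested, 20 rose and 2 fell, with a median log2 change of 1.17, against 1.77 over all kept spots and a median of 0.00 over all genes tested. Of 33 list genes at least 2-fold higher in the whole section, 26 were tested and 20 remained. Against matched control spots 14 of 32 rose and 4 fell, with a median of 0.55. Lists describe the members that were tested here, and genes that track the score are held low by the choice of spots.

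C4b, a complement component made by reactive astrocytes and oligodendrocytes, stood at 5.02 and 5.26 CPM in control low-score spots and at 57.2 and 43.8 CPM in the knockouts. The groups did not overlap, and the log2 change was 3.28 ± 0.20 (SE), with an adjusted p of 2.99e-07. Against matched spots, which held 15.4 and 12.4 CPM, it was 1.87. A2m, a protease inhibitor, was at 0.654 and 1.69 CPM in control and 21.3 and 18.4 CPM in knockout spots, a log2 change of 4.01 ± 0.32 (1.99 matched). The metallothionein gene Mt1, a zinc-binding stress gene, rose by 1.51, from 1397 and 1564 CPM to 4411 and 4007 CPM (matched 1.01). The astrocyte water channel and transporter markers moved less: 9 of 18 general astrocyte genes rose and 1 fell (median 0.40), but against matched spots 5 rose and 4 fell (median -0.09). Cryab, a small heat shock protein gene of the reactive list that oligodendrocytes also express, fell by 1.10.

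Endothelial genes were raised in the low-score spots. Of 14 pan-endothelial genes tested, 9 rose and 0 fell. The median log2 change was 1.01, beside 1.03 over all kept spots and 0.69 against matched spots, where 9 rose as well. With equal region shares 7 of 14 rose and 0 fell (median 0.60). The 7 pan-endothelial genes that were at least 2-fold higher in the whole section all remained in both comparisons. Summed over the list, endothelial transcripts made 265 and 261 CPM in control and 588 and 590 CPM in knockout low-score spots. More endothelial cells and more RNA per cell cannot be told apart in spots.

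Cldn5, which encodes the claudin that seals brain endothelial tight junctions, was at 31.4 and 35.0 CPM in control and 129 and 116 CPM in knockout spots. Both knockouts lay far above both controls, with a log2 change of 1.88 ± 0.12 (SE) and an adjusted p of 3.86e-07, beside 1.77 over all kept spots and 1.44 against matched spots. The difference of its change between low-score and other spots (the interaction of genotype with spot class) was 0.09 ± 0.09 (SE, adjusted p = 0.523). Ly6a, an endothelial surface antigen, rose from 48.9 and 44.4 CPM to 179 and 174 CPM, a log2 change of 1.92 in low-score spots and in the whole section alike, and 1.5 against matched spots.

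Genes linked to malformations and to clotting control were raised too. Of 19 tested genes of the lesion vascular list, 12 rose and 2 fell (median 0.91), and all 9 whole-section rises that were tested, of 11, remained. Against matched spots 11 of 20 rose and 3 fell (median 0.70). Klf4, a flow-responsive endothelial transcription factor, rose from 5.24 and 5.08 CPM to 17.9 and 17.1 CPM (log2 1.76, matched 1.17). Thbd, thrombomodulin, the endothelial thrombin receptor, rose from 3.93 and 4.32 CPM to 18.8 and 18.7 CPM (log2 2.18, adjusted p = 1.74e-05). Against matched spots its change was 0.83. Procr, the endothelial protein C receptor, had 0 and 1 UMIs in the control low-score spots and 29 and 36 in the knockouts. Of 10 coagulation and fibrinolysis genes tested, 8 rose and 0 fell (median 0.85), and against matched spots 5 rose and 1 fell (median 0.41).

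Blood-brain barrier genes went both ways. Of 20 tested, 8 rose and 5 fell, and all 7 whole-section changes of at least 2-fold, 4 higher and 3 lower, remained in both comparisons. The glucose transporter gene Slc2a1 rose from 114 and 121 CPM to 309 and 309 CPM (log2 1.39 ± 0.10). Mfsd2a, a lipid transporter that restrains transcytosis, rose from 32.7 and 37.8 CPM to 116 and 107 CPM. Its log2 change was 1.65 in low-score spots and 1.05 over all kept spots, and the difference passed its test (interaction 0.69, adjusted p = 2.97e-05). With equal region shares, the interaction was called higher for 1 and lower for 4 of the 20 barrier genes. Itm2a, a membrane protein gene enriched in brain endothelium, fell from 87.7 and 88.7 CPM to 37.3 and 39.1 CPM (log2 -1.20, matched -1.55). Mural genes, which mark pericytes and smooth muscle, had 5 of 13 rise and 0 fall, but 2 rise and 1 fall against matched spots. Of 27 fibroblast and matrix genes 6 rose and 5 fell (median -0.08, against 0.54 over all kept spots), and against matched spots 5 of 28 rose and 11 fell (median -0.56). Among them Fn1, fibronectin, rose by 1.40 and Dcn, decorin, fell by 2.94.

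Immune genes split by type. Among class I antigen presentation genes, 13 of 16 tested rose and 0 fell, with a median of 1.13 beside 1.17 over all kept spots (8 of 17 and 0.59 against matched spots). With equal region shares 4 of 13 rose and 0 fell (median 0.51). H2-D1, a class I heavy chain, rose from 33.6 and 41.9 CPM to 126 and 117 CPM (matched log2 1.25). Of 10 whole-section rises, the 8 that were tested all remained, against 5 of 9 tested against matched spots. Of 31 interferon response genes, 15 rose and 1 fell (median 0.82, against 1.49 over all kept spots), and against matched spots 8 of 33 rose and 1 fell. Their summed level hardly separated the groups, at 417 and 374 CPM in control and 411 and 456 CPM in knockout spots.

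By the interaction with spot class, the knockout change was lower in low-score spots for 8 of 21 complement and 15 of 31 activated phagocyte genes and higher for 1 of each. Genes that follow the score within the knockouts get a lower change by the choice of spots, so the interactions in this paragraph are a description. Of 15 complement genes at least 2-fold higher in the whole section, 8 were tested in low-score spots and 2 remained. The list had 2 rises and 2 falls of 13, and its median turned from 0.32 to -0.30 against matched spots. Of 26 activated phagocyte genes, 10 rose and 1 fell (median 0.38), while 7 rose and 6 fell against matched spots (median -0.09), and 6 of the 11 tested whole-section rises, of 15, remained. Spp1, osteopontin, which both phagocytes and some neurons express, rose from 25.3 and 22.9 CPM to 108 and 94.8 CPM, a log2 change of 2.08 against 2.98 in the whole section and 1.37 against matched spots. The difference between spot classes passed its test (interaction -1.03, adjusted p = 1.87e-05). Gpnmb, a lysosomal glycoprotein gene of lipid-laden phagocytes, reached only 3.13 and 4.20 CPM in the knockouts against 1.31 and 0.940 CPM, and its change was smaller than in other spots (interaction -2.72, adjusted p = 0.000825). The call of Gpnmb in low-score spots ended without control 2 (adjusted p = 0.0628) or knockout 2 (adjusted p = 0.0964).

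Homeostatic microglia genes were low. Of 16 tested, 0 rose and 10 fell, with a median of -0.69, and against matched spots 13 fell with a median of -1.25. With equal region shares 10 fell (median -0.80). Matched control spots have higher scores than control low-score spots. Within the controls the microglial sum was 445 and 473 CPM in the lowest and 903 and 876 CPM in the top 10% of spots by score. P2ry12, the microglial ADP receptor, was at 35.6 and 34.8 CPM in control spots and at 6.86 and 9.60 CPM in knockout spots. The groups did not overlap, and the log2 change was -2.07 ± 0.18 (SE), with an adjusted p of 4.44e-06 (matched -2.38). Fcrls, an Fc receptor-like gene of mouse microglia, fell from 13.5 and 16.0 CPM to 1.19 and 1.32 CPM, a log2 change of -3.53 in low-score spots against -0.81 in all kept spots and -4.19 against matched spots (interaction -2.89, adjusted p = 2.42e-07). Cx3cr1, the fractalkine receptor, fell by 1.43, although over the whole section its change of -0.26 was not called. Summed microglial transcripts were 445 and 473 CPM in control and 348 and 352 CPM in knockout low-score spots. Over all kept spots the sum was higher in the knockouts, at 502 and 575 against 750 and 754 CPM, and 5 genes rose and 8 fell. Of its whole-section changes of at least 2-fold, 0 of 3 rises and 3 of 3 falls remained. Within the knockouts this sum was 1585 and 1768 CPM in the top 10% of spots by score. How far the choice of spots by a glial score sets the microglial level was not tested. Markers of other immune cells were few: 2 of 3 monocyte and border macrophage genes tested, 2 of 5 neutrophil genes and 0 of 2 lymphocyte genes rose, and their sums stayed below 100 CPM in every library.

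**Figure D3:**
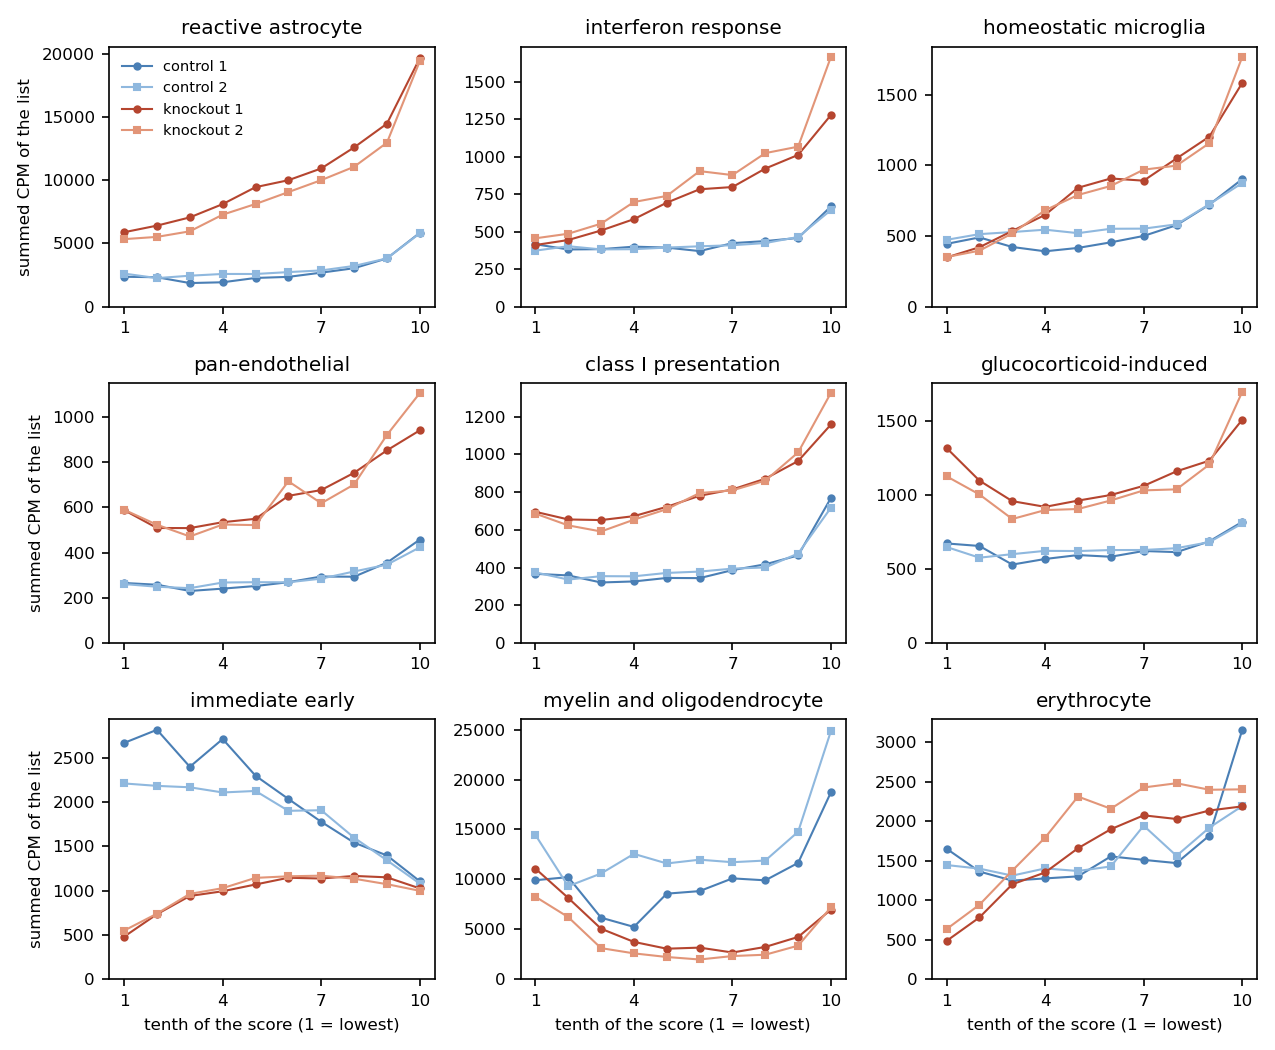
Summed CPM of 9 gene lists (y axis, from 0) in each successive 10% of a library's kept spots ordered by score (x axis, 1 is lowest), 1 line per library. In the knockouts the reactive astrocyte, interferon, microglia, erythrocyte, pan-endothelial, class I and glucocorticoid-induced sums are higher in the top than in the lowest step. The reactive astrocyte, pan-endothelial, class I and glucocorticoid-induced sums lie above both controls from the lowest step on. The immediate early sum of the knockouts is lowest in the lowest step, at 479 and 548 CPM.

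Most genes on a list of those that the glucocorticoid receptor induces rose. Of 14 tested 11 rose and 1 fell, with a median log2 change of 1.47 in low-score spots, 1.45 over all kept spots and 1.33 against matched spots. With equal region shares 10 of 15 rose and 1 fell (median 1.03). The interaction with spot class was called higher for 4 and lower for 2 of 15 genes, and with equal region shares for 0 and 3. All 7 whole-section rises tested remained in both comparisons. Several genes of the list respond to other signals too.

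Plin4, a lipid droplet coat gene, was at 1.53 and 0.376 CPM in control and 31.3 and 25.8 CPM in knockout spots. That was a log2 change of 4.94 ± 0.34 (SE) with an adjusted p of 7.53e-07, and 4.24 against matched spots. Cdkn1a, which encodes the cell cycle inhibitor p21, rose from 14.8 and 13 CPM to 99.5 and 79.7 CPM (log2 2.69, matched 3.13). Sgk1, a kinase gene, rose from 138 and 153 CPM to 473 and 389 CPM. Its log2 change of 1.56 exceeded the 0.90 of the whole section, and the difference passed its test (interaction 0.78, adjusted p = 1.76e-07). With equal region shares, neither Sgk1 nor another gene of the glucocorticoid list had a higher interaction call. Groups were apart for all 3 genes. Hif3a, a hypoxia-inducible factor gene, rose by 3.0, whereas the hypoxia list had 7 rises and 2 falls of 19 (median 0.29), beside 13 rises and 1 fall of 20 over all kept spots and 8 rises and 2 falls of 19 against matched spots.

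Oligodendrocyte genes moved both ways. Of 9 genes known from disease-associated oligodendrocytes, 7 rose and 2 fell (6 and 2 against matched spots), of which C4b, Cdkn1a and Sgk1 are also in the lists above and H2-D1 and B2m among class I genes. Apod, an apolipoprotein gene that oligodendrocytes express, rose from 251 and 312 CPM to 1992 and 1619 CPM (log2 2.68 ± 0.15, adjusted p = 1.52e-07, matched 2.12). Its change was larger than in other spots (interaction 0.51, adjusted p = 9.94e-05). With equal region shares, the interaction was called higher for 0 and lower for 3 of the 9 genes. Il33, a nuclear alarmin of oligodendrocytes and astrocytes, fell from 36.9 and 51.5 CPM to 17.5 and 14.4 CPM.

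Among 18 myelin and oligodendrocyte genes, 12 fell and 1 rose, with a median of -0.77 against -1.5 over all kept spots and -1.27 against matched spots. The log2 change was higher in low-score than in other spots for all 18 by the interaction test, beside 13.7% of all genes tested. With equal numbers of spots per region list it was higher for 6 and lower for 1. Opalin, a mature oligodendrocyte membrane protein gene, fell from 101 and 102 CPM to 20.2 and 17.9 CPM, a log2 change of -2.42 ± 0.12 (matched -2.75). Mog fell from 186 and 240 CPM to 77.8 and 65.8 CPM (matched log2 -2.03). Mbp, the main myelin basic protein gene, stood at 3812 and 6345 CPM in control and 6261 and 4192 CPM in knockout spots, where the groups overlap. Of 15 whole-section falls of at least 2-fold in the list, 12 remained.

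Immediate early genes, which neurons switch on with activity, were low. Egr4, Egr1, Arc, Egr3 and Nr4a1 were among the 6 smallest p-values, with Mef2c, a cortical transcription factor gene. Of 24 tested, 22 fell and 0 rose, with a median log2 change of -2.60 in low-score spots, -1.22 over all kept spots and -1.52 against matched spots. All 13 whole-section falls of at least 2-fold remained in both comparisons. With equal region shares 22 fell and 1 rose (median -1.87). The gap to matched spots differed by region list. In striatum-list spots the immediate early sum was 1889 and 2085 CPM in matched control and 481 and 491 CPM in knockout spots. In midbrain and hindbrain-list spots it was 653 and 697 against 468 and 568 CPM. Egr1 was at 443 and 363 CPM in control and 13.6 and 17.4 CPM in knockout low-score spots, a log2 change of -4.69 ± 0.16 (SE) with an adjusted p of 3.15e-09. Matched control spots held 163 and 162 CPM, which leaves a log2 change of -3.38. Arc, a synaptic plasticity gene, fell from 180 and 162 CPM to 8.06 and 7.44 CPM (log2 -4.46, matched -2.99), and Nr4a1, an orphan nuclear receptor gene, from 220 and 184 CPM to 6.42 and 9.36 CPM (log2 -4.65, matched -3.27). For all 3 genes, knockout spots lay below every control value in both comparisons.

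Excitatory neuron genes fell as well. Of 10 tested, 9 fell and 1 rose (median -2.90), while over all kept spots 5 fell and 1 rose (median -0.30). Against matched spots 8 fell and 1 rose (median -2.05), and with equal region shares 8 fell and 1 rose (median -0.90). Slc17a7, the vesicular glutamate transporter of cortex and hippocampus, fell by 2.84. In sums with equal numbers of spots per region list its log2 change was 0.10 (adjusted p = 0.538). The cortical transcription factor genes Tbr1 and Fezf2 fell by 3.88 and 5.77, and in those sums they fell by 1.05 and 1.82. Cort, cortistatin of cortical interneurons, fell from 50.0 and 32.3 CPM to 0.298 and 0.600 CPM. It fell by 5.11 with equal region shares and by 4.41 over all kept spots. Of 25 synapse genes 19 fell and 0 rose (median -0.62). Against matched spots 15 fell and 4 rose, and with equal region shares 6 fell and 0 rose (median -0.13).

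Genes of tissues that border the brain went both ways. Of 4 pituitary genes tested 3 fell and 1 rose, of 6 choroid plexus and ependyma genes 1 fell and 2 rose, and of 8 leptomeningeal genes 3 fell and 1 rose. Against matched spots 4 of 5, 5 of 9 and 5 of 9 fell. The pituitary hormone gene Prl had 168 and 22 UMIs in the control low-score spots and 0 in both knockouts. Gh, growth hormone, had 212 and 82 UMIs in control and 1 and 0 in knockout spots. Ttr, transthyretin of the choroid plexus, was at 10.9 and 96.4 CPM in control and 1.19 and 0.360 CPM in knockout spots. The controls differed several-fold between themselves for these genes, and how much of such tissue each section held was not tested.

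Single genes of several kinds were among the largest rises. Ucn, urocortin, a stress peptide of the midbrain, was at 0.436 and 0.376 CPM in control and 38.5 and 49.8 CPM in knockout spots (log2 6.71 ± 0.33, adjusted p = 6.21e-08). Cartpt, which encodes another neuropeptide, rose from 44.5 and 28.6 CPM to 362 and 674 CPM. Within midbrain and hindbrain-list spots Cartpt stood at 20.03 and 12.7 CPM in matched control and at 879 and 403 CPM in knockout spots, and within striatum-list spots at 15.8 and 12.8 against 319 and 669 CPM. Pou4f1, a transcription factor gene of the habenula, and Pla2g3, a secreted phospholipase gene, rose by 4.52 and 3.94. Ucn, Pou4f1 and Pla2g3 are given here only for the comparison in which region differs with genotype. Midbrain and hindbrain-list spots were 5.75% and 7.45% of its control and 31.2% and 29.2% of its knockout spots. Pglyrp1, an innate immune peptidoglycan recognition gene, rose from 16.1 and 19.2 CPM to 120 and 142 CPM, with a log2 change of 2.88 beside 2.93 in all kept spots and 2.44 against matched spots.

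**Figure D4:**
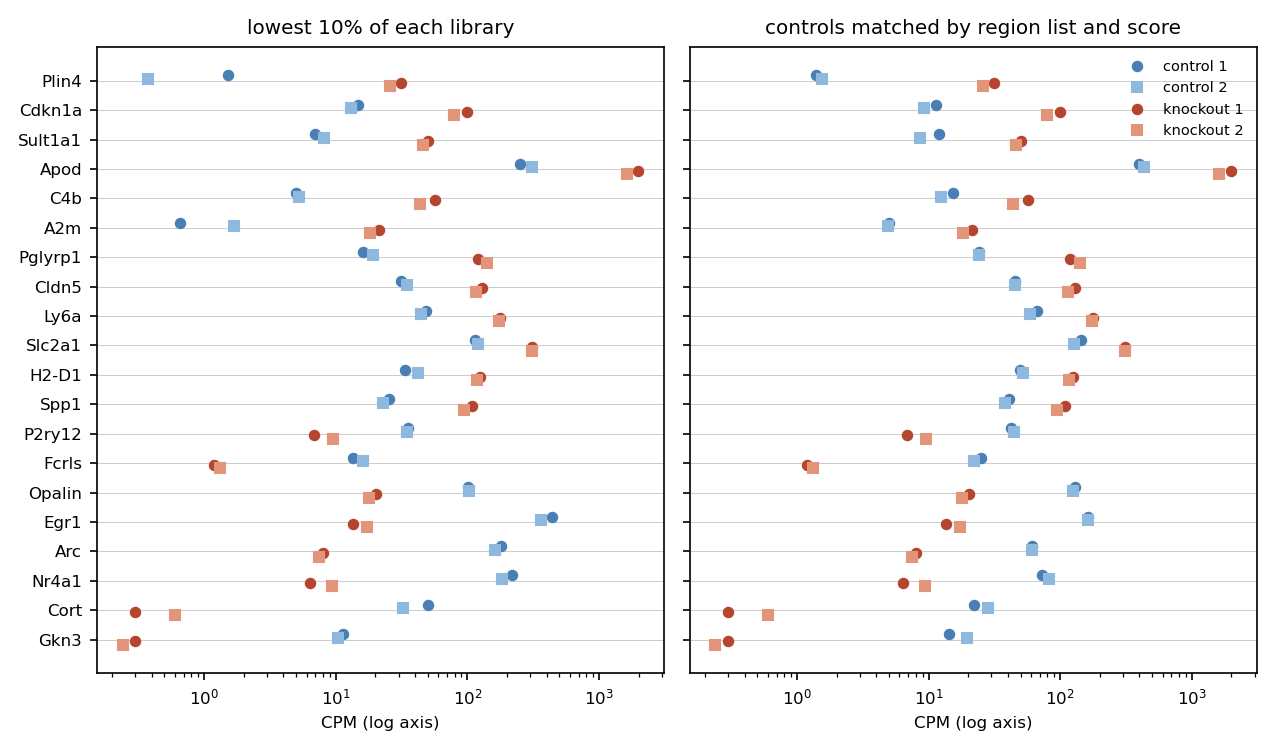
CPM (x axis, log scale) of 20 genes (y axis) in low-score spots, 1 marker per library, with control low-score spots on the left and control spots matched by region list and score on the right. Knockout markers lie to the right of both control markers for Plin4, Cdkn1a, Cldn5 and C4b and to the left for P2ry12, Opalin, Egr1 and Arc in both panels.

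Within region lists, some changes kept their direction and others did not. In the 5 region lists with at least 30 knockout low-score spots (olfactory bulb, midbrain and hindbrain, thalamus, striatum, hypothalamus and amygdala), Cdkn1a stood between 69.0 and 114 CPM in the knockouts and between 6.76 and 21.1 CPM in matched control spots. Cldn5 ranged from 97.4 to 141 CPM against 33.2 to 63.3 CPM. P2ry12 ranged from 5.31 to 11.4 CPM in the knockouts and from 21.1 to 56.5 CPM in the controls. For each of these genes the groups were apart in all 5 lists. Egr1 differed more between regions in the controls, from 67.3 to 327 CPM, than in the knockouts, from 7.84 to 33.0 CPM. Synapse sums, in contrast, were higher in the knockouts in hypothalamus and amygdala-list spots (4975 and 5733 against 7517 and 7079 CPM) and in midbrain and hindbrain-list spots (6411 and 6532 against 7194 and 7726 CPM). Myelin sums overlapped in striatum-list spots, at 6004 and 10676 against 11891 and 9637 CPM. Interferon response sums were lower in the knockouts in hypothalamus and amygdala-list spots, at 534 and 524 against 422 and 473 CPM. Matched control spots of that list also held 2469 and 608 CPM of pituitary genes, against 34.7 and 77.0 CPM in the knockouts. Choroid plexus and ependyma genes made 1858 and 273 against 33.6 and 39.1 CPM there. The part of such tissue in the synapse and interferon sums of that list was not tested. These values rest on 30 to 101 spots a library and were not tested.

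Transcripts of red blood cells were low in the knockout low-score spots. Erythrocyte genes summed to 1651 and 1444 CPM in control and 483 and 633 CPM in knockout low-score spots. All 6 tested fell, with a median of -1.75 (all 6 against matched spots too), whereas over all kept spots 1 rose and 2 fell. The sum was 2187 and 2402 CPM in the top 10% of knockout spots by score. Of 25 cytosolic ribosomal protein genes 15 rose and 0 fell in low-score spots (median 0.31), 4 rose against matched spots and 1 rose with equal region shares (median 0.07). The part of blood content in other changes was not tested.

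Some of the largest whole-section rises could be followed in low-score spots and others could not. Timp1, an inhibitor of matrix metalloproteinases, rose by 5.81 over all kept spots, from 0.675 and 0.561 CPM to 34.1 and 34.6 CPM. In low-score spots it stood at 0.436 and 0.188 CPM in control and 2.39 and 3.24 CPM in knockout spots, a log2 change of 3.15 ± 0.61 (SE). The difference between spot classes missed the threshold (interaction -2.70, adjusted p = 0.0548). Lcn2, lipocalin 2, had a log2 change of 5.22 over all kept spots and 3.70 in low-score spots, a difference that was not called (interaction -1.59, adjusted p = 0.166). Cxcl10, an interferon-induced chemokine gene, rose by 5.66 over all kept spots and was too low in count to be tested in low-score spots, as were Ms4a6c, a myeloid gene, and the pituitary hormone gene Cga.

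Whole-section and low-score changes were compared directly by the interaction of genotype with spot class. It was called for 4515 of 16634 genes (27.1%), 2279 with a higher and 2236 with a lower log2 change in low-score spots. With equal numbers of spots per region list it was called for 1228 of 16585 (7.4%), higher for 607 (3.66%) and lower for 621 (3.74%). Reactive astrocyte genes had 0 higher and 17 lower calls, and homeostatic microglia genes 0 and 9, class I genes 0 in either direction and pan-endothelial genes 1 in each. With equal region shares there were 0 higher calls in these 4 lists, and 12, 10, 2 and 3 lower ones in the same order. The 3 score genes made 173 and 142 CPM in low-score and 1358 and 1301 CPM in other knockout spots. In the controls they made 0 CPM in low-score and 120 and 141 CPM in other spots. Lower calls of genes that follow the score within the knockouts therefore follow from the choice of spots and are a description.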

How the data were processed

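The deposited files hold raw counts of UMIs, per the file headers, for 32285 genes at 4992 spot barcodes in every library. The submitters' processing notes name Space Ranger and mm10; the version of Space Ranger is not given in the sources used here. Libraries held 50148764 to 74467027 UMIs, and the genotype label set the groups. The members and the gene lists were chosen with earlier results of these data known.

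Kept spots were ordered by score and, where tied, by barcode, and counts of the lowest 10% were summed per library. The sums were tested in R 4.3.3 by edgeR 4.0.16 (TMM, filterByExpr, quasi-likelihood test), with p-values adjusted by Benjamini-Hochberg across the whole table at 0.05. The 3 score genes were not tested. The procedure was checked on simulated counts. The interaction used low-score and other spots of each library, with the library as a block. CPM of single genes include the TMM factor, while sums of lists and of the score genes do not. Log2 values are knockout over control. Spots went to 1 of 8 region lists by the highest mean z score of log counts per 10000. No doublet caller was run, since a spot holds several cells.

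Pdcd10 and the 3 score genes were fixed in advance. The 12 largest rises, 12 largest falls and 6 smallest p in low-score spots were named, with 10 genes per direction of the whole section. These had to be called, with groups that do not overlap and 5 CPM or more on average. The 6 genes per direction of the interaction had to be called at 5 CPM or more, and their groups may overlap. Up to 4 called genes per gene list had no condition on overlap or CPM. Region lists gave their 3 genes with the highest mean CPM. Where fewer than 2 genes of a list passed, its 2 with the highest mean CPM could be named. Aldoa and Ddit3 were not analysed here, because 2 identifiers share each symbol. One gene that met the rule is not reported here. Gene positions came from RefSeq's table for GRCm38.p6.

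The replicate numbers mark no shared animal or batch in the labels, and same-numbered libraries did not deviate together (correlation -0.156 over 11364 genes). The main tests therefore used no pairing. Matched control spots, however, were drawn from the control of the same number as the knockout, in order of falling score. Alternatives changed the UMI minimum, the share of spots, the treatment of ties, the score, the control spots, the depth, the normalization, the filter and the tool (DESeq2 1.42.0), or left out a library. Tables were handled in Python 3.11.15 (numpy 2.4.6, pandas 2.3.3) and plotted with matplotlib 3.10.9.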

Additional observations from a re-analysis of the deposited data

Results flagged for a closer look

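Genes whose knockout change differed most between low-score and other spots, by the interaction test, included markers of brain regions and Egr2, an immediate early gene. In low-score spots the log2 change was lower for Fezf2 by 5.38 (interaction -5.384), Egr2 by 4.43 (-4.432), Ovol2 by 4.16 (-4.156), Tbr1 by 3.92 (-3.92) and Ankrd63 by 3.78 (-3.78). Fezf2 and Tbr1 are cortical transcription factor genes, and cortex-list spots were 26.5% and 28.2% of control but 1.36% and 0.578% of knockout low-score spots. With equal numbers of spots per region list, the interaction was -1.31 for Fezf2, -0.98 for Tbr1 and -2.10 for Ovol2, all called, while those of Egr2 (-0.46, adjusted p = 0.563) and Ankrd63 (-0.67, adjusted p = 0.246) were not. Egr2 had 184 and 147 UMIs in control and 1 in each knockout low-score sum, so its size is uncertain.

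The log2 change was higher in low-score spots for Agrp (interaction 3.212), Th (2.876), En1 (2.666), Slc10a4 (2.665), Slc6a3 (2.608) and Foxa1 (2.518). Th makes the rate-limiting enzyme of dopamine synthesis and Slc6a3 the dopamine transporter, and midbrain and hindbrain-list spots were 5.75% and 7.45% of control and 31.2% and 29.2% of knockout low-score spots. With equal numbers of spots per region list the interaction had the other sign for Th (-0.79, adjusted p = 0.0263) and Slc6a3 (-1.0, adjusted p = 0.000255). It was -0.89 for En1, -0.77 for Slc10a4 and -0.63 for Foxa1, none called. Agrp, a hypothalamic peptide gene, had 19 and 8 UMIs in the control and 5 in each of the knockout low-score sums, against 17.4 and 19.7 CPM in other control and 0.484 and 0.481 CPM in other knockout spots.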

How the results depend on the processing

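Calls in low-score spots numbered 4120 as reported, 6599 against all control spots, 2391 with equal region shares and 2427 with DESeq2. Whole-section calls numbered 6487, and 3248 at the depth of the low-score sums. Interaction calls numbered 4515, 2953 with a score of Gfap alone, 1228 with equal region shares and 2517 with DESeq2. Remaining whole-section changes numbered 539, 857 in the lowest 20% of spots and 869 against all control spots. Leaving out each library gave 2819 to 4455 calls in low-score spots, 4932 to 6519 over all kept spots, 3359 to 4631 interactions and 481 to 575 remaining changes. With the replicate number as a block the calls were 4113 in low-score spots and 5731 over all kept spots, and 562 changes remained; crossed numbers gave 5387 in low-score spots.

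Log2 changes turned sign with equal region shares for Vtn (-0.212), Slc17a7 (0.102), Npy (1.28), Hspa1b (0.188), Slc6a3 (-1.29), Th (-0.747), En1 (-0.587), Slc10a4 (-0.874) and Foxa1 (-0.745). Against region- and score-matched spots those of Vtn (-0.0665), Vcan (-0.135), Slc6a3 (-0.336) and Slc10a4 (-0.107) turned, as did the medians of the general astrocyte (-0.0851), mural (-0.0750), activated phagocyte (-0.0879) and complement (-0.296) lists. Vtn also turned against all control spots (-0.0571) and score-matched ones (-0.0109). The complement median was -0.0396 and -0.185 there, and the mural median -0.00972 with equal region shares. Npy turned in the lowest 20% (0.360), with the score taken at 5000 UMIs (0.221) and with Gfap alone (0.294), where Hba-a2 was 0.247. Leaving out a library moved mt-Co3 between -0.290 (without control 1) and 0.375 (without control 2). The cause was not tested. Of the other gene values under an alternative, 3421 kept direction and side of the threshold, 133 lost the call and 30 gained it. A common score limit in all libraries was not run, because only 35 spots of knockout 1 lay at or below the median score of control 1. Genes too low in count in the low-score sums, 1085 of the whole-section changes, could not be followed at this depth.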

Other observations

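Ptgds, prostaglandin D synthase of oligodendrocytes and leptomeninges, stood at 1076 and 1253 CPM in control and 5775 and 4687 CPM in knockout low-score spots, a log2 change of 2.17 ± 0.15 (SE, edgeR adjusted p = 8.71e-07). Over all kept spots the levels were 1958 and 1938 CPM in control against 2284 and 2324 CPM in knockout libraries, and that change of 0.24 was not called (adjusted p = 0.0862). Against matched spots the change was 1.36. Of 8 leptomeningeal genes tested, 3 fell and 1, Ptgds, rose, and the list summed to 1240 and 1353 CPM in control and 5775 and 4724 CPM in knockout low-score spots.

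Of the 4120 calls in low-score spots, 1761 were not called over all kept spots and 105 were called there in the other direction. Serpina3g, a relative of Serpina3n, was at 1.31 and 0.188 CPM in control and 12.4 and 12.0 CPM in knockout low-score spots, a log2 change of 4.07, and its change was larger than in other spots (interaction 2.43, adjusted p = 0.0015). Serpina3 genes form a family of close copies, so its counts are uncertain.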
